A study of Mus musculus with 4 samples.

Results

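Smooth muscle nuclei were taken as the barcodes in which at least 3 of 6 smooth muscle genes (Myh11, Acta2, Tagln, Cnn1, Lmod1 and Actg2) had a UMI (a unique molecular identifier, 1 counted RNA molecule). A member had under 3 of 5 endothelial genes (Pecam1, Cdh5, Ptprb, Cyyr1, Mecom) and under 3 of 4 skeletal muscle genes (Ttn, Neb, Mybpc1, Trdn). Of 36690 barcodes with at least 300 genes and under 10% mitochondrial UMIs, 402 were members. The members were chosen by the measured UMI counts of these genes, so their levels are given as a description. The label was borne out for a part of the members only, by Myocd, a gene outside the rule. It was found in 14.1% to 31.8% of the members of each library. In the clusters singled out by it, Myocd was in 32 of 64 nuclei from all 4 libraries and 21 of 33 from 1. The clustering left out only the genes of the rule and not Myocd, so the counts of these clusters are a description. Many members, in these clusters and outside them, also carried RNA of epithelium, adipocytes, leukocytes or pericytes.

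Smooth muscle cells form the contractile coat of arteries, veins and hollow organs. Their force comes from smooth muscle myosin on alpha and gamma actin filaments, is switched on by calcium through myosin light chain kinase, and is lowered by nitric oxide through soluble guanylate cyclase and cyclic GMP. The genes of this apparatus are switched on by serum response factor bound to CArG boxes, together with its coactivator myocardin, encoded by Myocd. In fat, smooth muscle lies in the walls of small arteries and veins and sets blood flow through the depot.

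The study profiled nuclear RNA of mouse adipose tissue with SeekGene droplet libraries after sham or bariatric surgery, all mice on a high-fat diet. There was 1 library per group, named here by its tissue label, brown (BAT) or beige (BeAT) fat, and by sham or surgery; where 4 values follow each other they are in the order BAT sham, then BAT surgery, then BeAT sham, then BeAT surgery. Strain, sex, age and the number of mice per library are not stated in the labels, and the protocol describes rinsing away vessels and connective tissue before digestion. With 1 library per group no difference could be tested against the spread between animals. All intervals below are 95% intervals for counting error only, and a difference between libraries cannot be told apart from a difference between mice or dissections.

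The libraries held 23118695 to 60409801 UMIs. The library labelled BAT surgery stood apart by its epithelial and epididymal RNA, and whether it holds brown fat was not tested. In it, 2190 of 9942 passing barcodes had at least 3 of 7 epithelial genes, against 36, 0 and 0 in BAT sham, BeAT sham and BeAT surgery. Gpx5, a secreted glutathione peroxidase of the epididymis, had UMIs in 197 of its 199 smooth muscle members, at a median of 8720 CPM (UMIs of the gene per 1000000 UMIs). The median was 4049 CPM in its epithelial barcodes and 904 CPM in its macrophage barcodes, and members of the other 3 libraries had no Gpx5 UMI. Pairs of libraries shared 36 to 73 barcode sequences, and 4 members had a barcode that occurs in a second library.

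The 6 genes of the rule lie apart in the mouse genome (GENCODE M21, GRCm38). Myh11 (ENSMUSG00000018830), smooth muscle myosin heavy chain, is at chr16:14194535-14291372. Acta2 (ENSMUSG00000035783), smooth muscle alpha actin, is at chr19:34241090-34255590. Tagln, the actin-binding protein transgelin, is at chr9:45929619-45936058, and Cnn1, calponin, at chr9:22099216-22109630. Lmod1, an actin filament nucleator, is at chr1:135324807-135368065. Actg2, the gamma actin of visceral smooth muscle, is at chr6:83512905-83536265. Myocd is at chr11:65176561-65269989 and Myl9, the regulatory light chain of smooth muscle myosin, at chr2:156775420-156781658.

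CArG boxes were looked for by their letters in the 250 bases before the transcription start, on both strands (RefSeq, GRCm38.p6), since members shared genes of this programme. The box was found before 5 of the 20 contractile genes outside the rule that have a promoter in the table (of 23 listed), against 439 of 27025 genes (1.62%). It was found before none of the 3 rule genes with an entry, Acta2, Cnn1 and Lmod1, which says only that these letters are not in this window. A match is a description of the sequence. The stretches around the box are shown for Myl9, for Vcl, which links actin to adhesions, and for Dmd, the membrane anchor dystrophin, with the box in capitals.
Myl9, chr2:156775293-156775322, plus strand, box 161 to 152 bases before the start: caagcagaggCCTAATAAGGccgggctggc
Vcl, chr14:20929161-20929190, plus strand, box 227 to 218 bases before the start: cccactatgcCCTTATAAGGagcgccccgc
Dmd, chrX:82948762-82948791, plus strand, box 98 to 89 bases before the start: catgggcagtCCTATTATGGgaaagcaact

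Of these 3 genes, Myl9 and Dmd were higher in members than in the other barcodes of every library, and Vcl was under 2-fold apart in each. Myl9 had 1023, 362, 1583 and 706 CPM in members of the 4 libraries, and 14.1, 5.45, 22.9 and 2.34 CPM in the other barcodes. Dmd had 3793, 1265, 1650 and 2892 CPM in members, and 341, 125, 168 and 99.2 CPM in the others. Vcl had 475, 203, 335 and 258 CPM in members, and 413, 216, 397 and 136 CPM in the others. Vcl is used by most adherent cells.

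Members made up 103 of 10416 passing barcodes in BAT sham, or 0.989% (exact Clopper-Pearson interval 0.808 to 1.20). They were 199 of 9942 in BAT surgery, or 2.002% (1.735 to 2.296). In BeAT sham they were 78 of 10383, or 0.751% (0.594 to 0.937), and in BeAT surgery 22 of 5949, or 0.370% (0.232 to 0.559). The share was 2.02 times (1.59 to 2.59) that of sham in BAT surgery and 0.492 times (0.292 to 0.799) that of sham in BeAT surgery. Members had a median of 2527, 4300, 1590 and 2882 UMIs, against 4032, 5373, 3093 and 2777 over all passing barcodes. After thinning to 2000 UMIs, which kept the 7907, 8034, 6931 and 4058 barcodes deep enough, the shares were 0.594%, 1.10%, 0.404% and 0.197%, in the same order of libraries. In BAT surgery, 63 of the 199 members also had at least 3 epithelial genes, and 37 reached the rule only through Actg2. Actg2 had a UMI in 45.0% of the epithelial barcodes outside the members there (median 8913 UMIs) and in 62.3% of the members (median 4300 UMIs), so it marked smooth muscle poorly in that library.

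**Figure D1:**
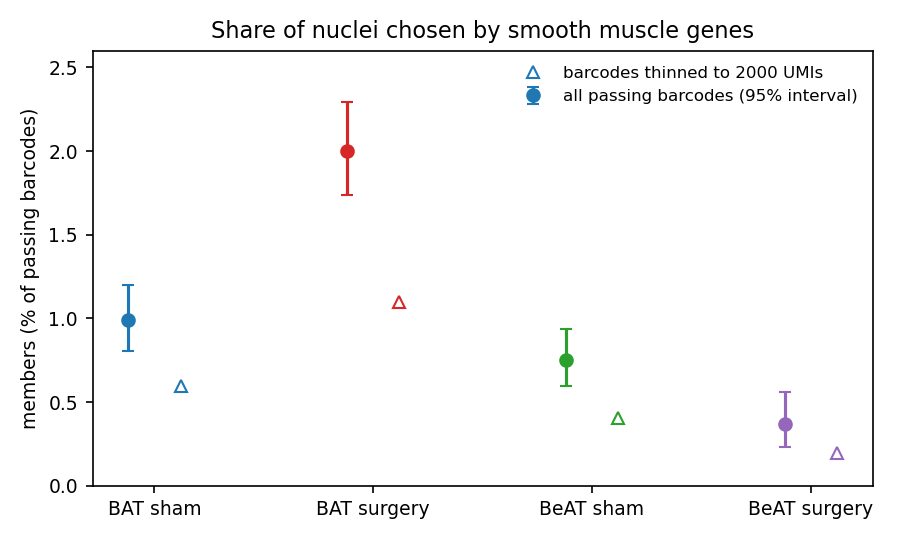
Members as a percentage of passing barcodes in each library. Circles give the share with its exact 95% binomial interval and triangles the share after thinning to 2000 UMIs; BAT surgery is highest at 2.002% and BeAT surgery lowest at 0.370%.

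Myh11, Acta2 and Tagln were the most abundant of the 6 chosen genes in each library. Myh11 had 2408 CPM (2247 to 2578) in members of BAT sham, 741 (695 to 789) in BAT surgery, 1836 (1650 to 2037) in BeAT sham and 3353 (2948 to 3799) in BeAT surgery. Acta2 had 2196, 837, 3682 and 1670 CPM, and Tagln 1382, 367, 2145 and 1425 CPM. BAT surgery was lowest for all 3 genes. Cnn1 was much less abundant, with 99.1, 101, 320 and 109 CPM. Lmod1 had 437, 90.3, 382 and 312 CPM, again lowest in BAT surgery. Actg2 had 67.1, 226, 113 and 95 CPM and was the only one of the 6 with its highest level in BAT surgery. The 6 genes summed to 6590, 2362, 8477 and 6964 CPM in members and to 94.1, 209, 92.9 and 26.8 CPM in the other barcodes, where Actg2 alone made up 178 of the 209 CPM in BAT surgery.

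Myocd, which the rule did not use, went with the 6 genes in each library. It had 102 UMIs in 29 of 103 members of BAT sham (297 CPM, 242 to 361), against 1.04 CPM in the other barcodes. It had 180 UMIs in 63 of 199 members of BAT surgery (138 CPM, 118 to 159), against 1.29 CPM. In BeAT sham it had 18 UMIs in 11 of 78 members (92.8 CPM, 55.0 to 147) and in BeAT surgery 17 UMIs in 7 of 22 (231 CPM, 134 to 370). Macrophage barcodes, which should lack it, had a Myocd UMI in 0.197%, 0.436% and 0.252% of cases in BAT sham, BAT surgery and BeAT sham, at median depths of 3505, 3484 and 2740 UMIs. None of the 203 macrophage barcodes of BeAT surgery had one.

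The number of rule genes detected graded this. In BAT sham, barcodes with 2 rule genes, just outside the rule, had Myocd in 3 of 109 (2.75%), those with 3, just inside, in 6 of 55 (10.9%), and those with 4 in 15 of 30 (50%). In BAT surgery the same steps were 4.95%, 14.5% and 28.6%, and 5 rule genes gave 55.8%. In BeAT sham, none of the 46 members with 3 rule genes had a Myocd UMI, and 4 of the 17 with 4 rule genes did. Members with only 3 rule genes, 55 of 103, 83 of 199, 46 of 78 and 10 of 22, were thus the least like smooth muscle by this independent gene.

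**Figure D2:**
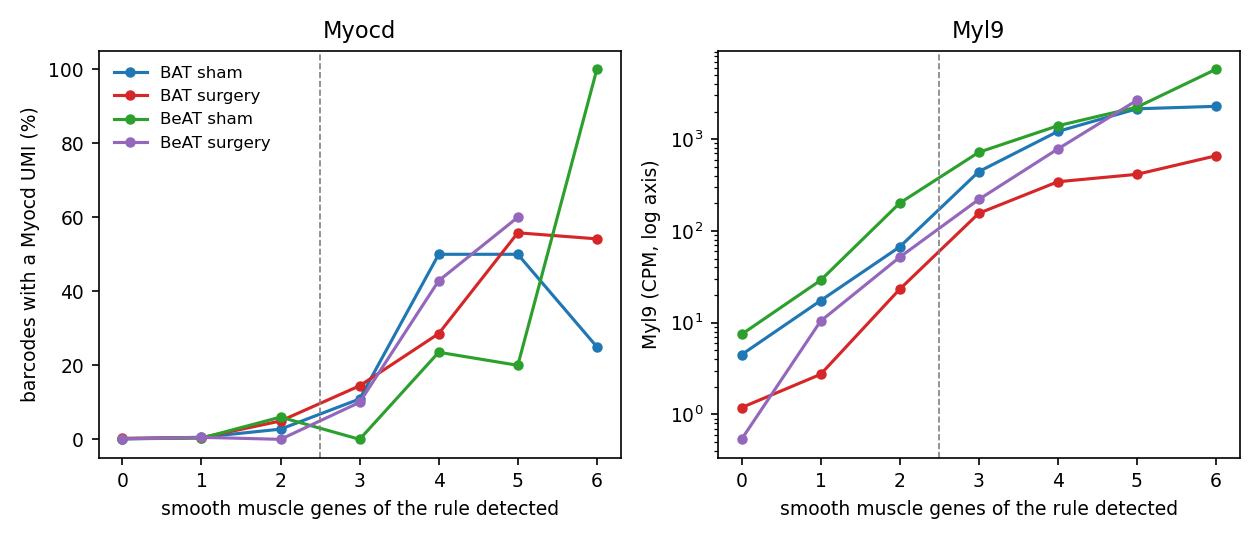
Percentage of barcodes with a Myocd UMI (left) and the summed level of Myl9 in CPM on a log axis (right) by the number of rule genes detected, 1 line per library. The dashed line marks the rule; both measures are low at 0 and 1 detected genes, and the points with 5 or 6 detected genes rest on 4 to 43 barcodes each.

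The contractile apparatus outside the rule was higher in members as a group. Called higher means at least 2-fold in CPM over the other barcodes of the library, an interval that leaves out 1 and at least 50 UMIs in both together. The share of all genes beside such counts has another base, genes outside the rule with at least 50 UMIs in members alone. That base held 1432 genes in BAT sham, 5699 in BAT surgery and 548 in BeAT sham. Counts and shares are thus not on equal terms. Of the 23 contractile genes, 19 were higher in BAT sham, where 22.8% of all tested genes were. In BAT surgery 18 were higher against 18.3% of all genes, and in BeAT sham 20 against 34.7%. No gene of the list was lower in these 3 libraries. The share of all genes lower in members than in other barcodes was not counted. Counts of genes lower than in other barcodes, here and in the lists below, thus have no share beside them. Mylk, myosin light chain kinase, had 904, 564, 830 and 828 CPM in members of the 4 libraries, but 306 CPM in the other barcodes of BAT surgery against 29.1 to 33.0 elsewhere. Tpm2, a tropomyosin, had 572, 187, 1155 and 611 CPM in members and 3.54 to 29.4 CPM in the other barcodes. Des, the intermediate filament desmin, had 119, 92.6, 180 and 367 CPM. Myl9 was the only gene among the 20 highest ratios of members over other barcodes in all 3 libraries with at least 50 members.

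Among the regulators, Srf itself was barely detected, with 4, 8, 0 and 0 UMIs in members. Mrtfb, a relative of myocardin, had 172, 160, 113 and 163 CPM in members, close to the 145 to 183 CPM of the other barcodes. Mef2c had 528, 126, 495 and 217 CPM. Foxf1, a regulator of gut smooth muscle, had no UMI in any member. Of the regulators with at least 50 UMIs in both together, 6 of 14 were higher than in the other barcodes of BAT sham (all genes 22.8%). In BAT surgery 5 of 15 were higher (18.3%) and in BeAT sham 5 of 13 (34.7%), with the shares of all genes on their own base.

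Of the calcium and ion channel genes with at least 50 UMIs, 15 of 21 were higher in BAT sham (all genes 22.8%), 8 of 21 in BAT surgery (18.3%) and 10 of 20 in BeAT sham (34.7%), and none was lower. Cacna1c, the L-type calcium channel of vascular muscle, had 1341, 221, 732 and 1928 CPM in members. Its relative Cacna1d had 17.5, 605, 20.6 and 13.6 CPM, high in BAT surgery only among these 4 libraries, where the other barcodes had 230 CPM. Ryr2, a calcium release channel, had 303, 27.6, 113 and 312 CPM.

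In the nitric oxide and cyclic GMP arm, 11 of 15 genes were higher and 1 lower in BAT sham, where 22.8% of all genes were higher. In BAT surgery 10 of 15 were higher and none lower (18.3%), and in BeAT sham 9 of 15 were higher and 2 lower (34.7%). Gucy1a1 and Gucy1b1 encode the subunits of soluble guanylate cyclase, the nitric oxide receptor. Gucy1a1 had 501, 33.7, 299 and 163 CPM in members and 5.70 to 23.6 CPM in the others. Gucy1b1 had 152, 16.1, 144 and 67.9 CPM. Prkg1, the cyclic GMP-dependent kinase, had 3347, 801, 1232 and 3150 CPM, and Pde5a, which breaks cyclic GMP down, had 152, 40.6, 82.5 and 231 CPM. BAT surgery was the lowest of the 4 libraries for all 4 genes.

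Receptors for contracting signals were sparse. Of those with at least 50 UMIs, 7 of 18 were higher and 2 lower in members of BAT sham, where 22.8% of all genes were higher, and 4 of 16 were higher and 2 lower in BAT surgery (18.3%). In BeAT sham 3 of 16 were higher and 1 lower (34.7%). These shares of all genes rest on genes with at least 50 UMIs in members alone, so they cannot be ranked against the receptor counts. Ednra, the endothelin receptor of vascular muscle, had 344, 91.9, 175 and 149 CPM. Npy1r, a receptor for the sympathetic cotransmitter neuropeptide Y, had 117, 16.1, 98.0 and 109 CPM. P2rx1, the ATP-gated channel of sympathetic contraction, had 64.2 CPM in BAT sham, 92.8 in BeAT sham and 149 in BeAT surgery, but 3 UMIs in 1 of 199 members of BAT surgery. Adra1a had 17, 6, 4 and 8 UMIs, below the CPM of other barcodes in BAT surgery and BeAT sham.

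RNA of other cell types was present beside these genes. Pericyte markers summed to 2035, 289, 1784 and 1317 CPM in members against 338, 98.8, 428 and 173 CPM in other barcodes, with all 9 detected in each library but BeAT surgery, where Cox4i2 was at 0. The 11 adipocyte markers were all detected and summed to 6963, 1888, 7812 and 4290 CPM, below the 17142, 3802, 16941 and 10507 CPM of other barcodes. The 7 epithelial markers summed to 43.7 and 514 CPM in BAT sham and BAT surgery, and were all at 0 in both BeAT libraries. The 14 epididymal markers summed to 18132 CPM in BAT surgery and to 13.6 to 181 CPM elsewhere. Mitochondrially encoded RNA had a median share of 0.785%, 1.03%, 2.06% and 1.52% of UMIs in members, against 0.147%, 0.0371%, 0.444% and 0.0891% in the others. The part of these RNAs in the levels above was not tested.

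Clustering the 402 members without the 15 genes of the rule gave 11 clusters, and only 2 had Myocd in at least 50% of nuclei. Cluster 1 held 64 nuclei, 32 of BAT sham, 6 of BAT surgery, 14 of BeAT sham and 12 of BeAT surgery. Its 6 rule genes summed to 16598 CPM, 32 of its nuclei had Myocd, and it was led by Col19a1, Slc38a11, Susd5, Ryr2 and Dgkb. Cluster 7 held 33 nuclei, all of BAT surgery. Its rule genes summed to 6277 CPM, 21 of its nuclei had Myocd, and it was led by L3mbtl4, Col11a1, Kcnip1, Nlgn1 and Pgm5. Both were called smooth muscle-like; Scrublet, a doublet caller, marked none of their nuclei, and 0 and 1 had 3 epithelial genes. A cluster of 1 library cannot be told apart from that library.

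The other 9 clusters were left unnamed. Cluster 2, with 84 nuclei, had a median of 1034 UMIs, the highest mitochondrial share (2.74%) and led with Fabp4 and hemoglobin RNA. Cluster 4, with 25 nuclei, had Notch3 at 1912 CPM and Rgs5 at 894 CPM, genes of pericytes. Cluster 5, with 29 nuclei, was led by genes that include Nnat and Nrg4, and Scrublet marked 11 of them. Cluster 9, with 28, was led by leukocyte genes such as Ptprc and Ikzf1. Clusters 8, 10 and 11, with 70, 29 and 24 nuclei, came from BAT surgery alone, had 19, 21 and 19 nuclei with at least 3 epithelial genes, and were led by genes that include Defb1, Lipc and Defb13. Myocd was still found in 24 of the 70 nuclei of cluster 8. Clusters 3 and 6 had 6 and 10 nuclei, with Sox10, a glial gene, among the leading genes of cluster 3.

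**Figure D3:**
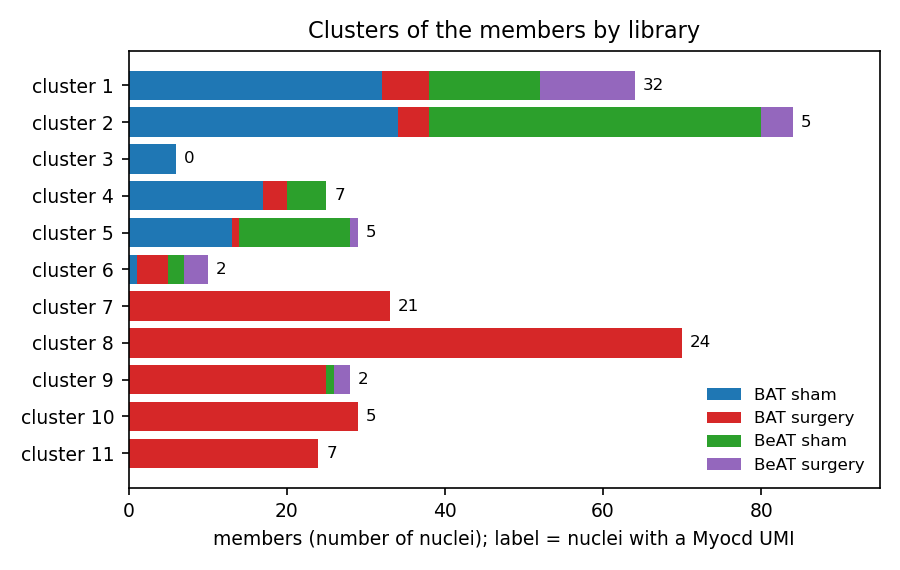
Number of members in each of the 11 clusters, coloured by library, with the number of nuclei that had a Myocd UMI printed at the bar end. Cluster 1 draws on all 4 libraries, and clusters 7, 8, 10 and 11 on BAT surgery alone.

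Clusters 1 and 7 had Myocd, Dmd and Mylk at similar levels, but not the whole contractile apparatus. Myocd was at 710 CPM (590 to 847) in cluster 1 and 740 CPM (588 to 918) in cluster 7. Both clusters were singled out by Myocd in at least 50% of their nuclei, so its like level is partly given by that choice. Dmd was at 6683 CPM (6304 to 7080) and 6160 CPM (5707 to 6640), and Mylk at 1910 and 1551 CPM. The endothelin receptor Ednra was at 358 CPM (274 to 459) and 352 CPM (250 to 481). The myosin and actin genes that chose the nuclei were lower in cluster 7, with Myh11 at 5996 and 2363 CPM and Acta2 at 5766 and 2363 CPM. Several contractile genes outside the rule were lower there too. Myl9 was at 2343 and 1091 CPM, Tpm2 at 1847 and 505, Cald1 at 2938 and 992, and Flna at 2326 and 821 CPM. Pgm5, of the same list, was higher in cluster 7, at 294 and 1542 CPM. Gpx5 was in 32 of the 33 nuclei of cluster 7, at 5267 CPM.

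Several genes, among them Notch3, Gucy1a1 and Rgs4 of the vascular mural list, were found in cluster 1 and hardly or not at all in cluster 7. Ednra of the same list was alike, at 358 and 352 CPM, and P2rx1 is on the visceral smooth muscle list. Some of the genes of cluster 1 were as high or higher in cluster 4. There Notch3 was at 1912 CPM, Gucy1a1 at 925, Gucy1b1 at 360 and Npy1r at 298 CPM, while P2rx1 and Ryr2 had no UMI. The clusters were built from these same counts, so the differences describe the split, and the genes that are not in the lists were chosen after their values were seen. Notch3, a Notch receptor of arterial smooth muscle and pericytes, had 155 UMIs in 45 of 64 nuclei of cluster 1 (895 CPM, 759 to 1047) and none in cluster 7, where 3 UMIs would be 27.1 CPM. Gucy1a1 had 102 UMIs in 43 nuclei (589 CPM) against 2 in 1 nucleus. Gucy1b1, P2rx1, Npy1r and Rgs4 had 38, 40, 36 and 37 UMIs in cluster 1, in 21 to 23 nuclei each, and none in cluster 7. Ryr2 had 831 CPM against 45.1 CPM (14.6 to 105), and Ebf1, a transcription factor of mural cells and adipocytes, 3365 against 144 CPM. Dgkb, a diacylglycerol kinase, had 844 UMIs in 52 nuclei against 3 UMIs in 2.

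Cluster 7 had more of several other channel and matrix genes than cluster 1. Cacna1d was at 2318 CPM (2043 to 2619) in 27 of 33 nuclei, against 23.1 CPM (6.29 to 59.1) in cluster 1, and Cacna1c was the lower of the pair, at 568 against 2268 CPM. Slc8a1, the sodium-calcium exchanger, was at 2570 against 1062 CPM. Pgm5, a phosphoglucomutase-related protein of muscle adhesions, was at 1542 CPM (1320 to 1792) against 294 CPM (219 to 387). In cluster 1 it was at 231, 530, 216 and 509 CPM by library, in the order used above. It was at 2221 CPM (1572 to 3048) in the 6 nuclei of cluster 3, all of BAT sham. Kcnip1, a potassium channel-interacting protein, was at 1714 against 40.4 CPM. Lama2, a laminin chain, was at 1948 against 57.7 CPM. Tcf21, a mesenchymal transcription factor, had 12 UMIs in 7 nuclei and none in cluster 1. Some of these genes were also found in the other clusters of BAT surgery, at lower levels: across clusters 8 to 11 Cacna1d was at 284 to 547 CPM, Lama2 at 198 to 784 CPM and Slc8a1 at 367 to 648 CPM. Markers of adipose progenitors were higher in cluster 7 too, with Pdgfra in 15 of 33 nuclei (244 against 17.3 CPM) and Dcn in 23 (857 against 121 CPM), and Lama2 is on that marker list. The part of progenitor RNA in the difference was not tested.

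The 6 nuclei of cluster 1 that came from BAT surgery can be set beside cluster 7 of the same library; their own counts put them in cluster 1, so this describes the split. They had Gpx5 in all 6 (3919 CPM), so they carried the same epididymal RNA. They also had 8 Notch3 UMIs in 3 nuclei, 63 Dgkb UMIs in 4 and 6 Gucy1a1 UMIs in 2, out of 9441 UMIs in all. Cluster 7, with 110878 UMIs from the same library, had 0, 3 and 2. Slc38a11, a leading gene of cluster 1, had no UMI in those 6 nuclei. Kcnip1 had none either, which at this depth allows a level of up to 318 CPM. In cluster 1 of the other libraries Notch3 was at 1080 CPM in BAT sham, 810 in BeAT sham and 446 in BeAT surgery. Kcnip1 was absent from the 32 and 14 sham nuclei and had 7 UMIs in 4 of the 12 nuclei of BeAT surgery.

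**Figure D4:**
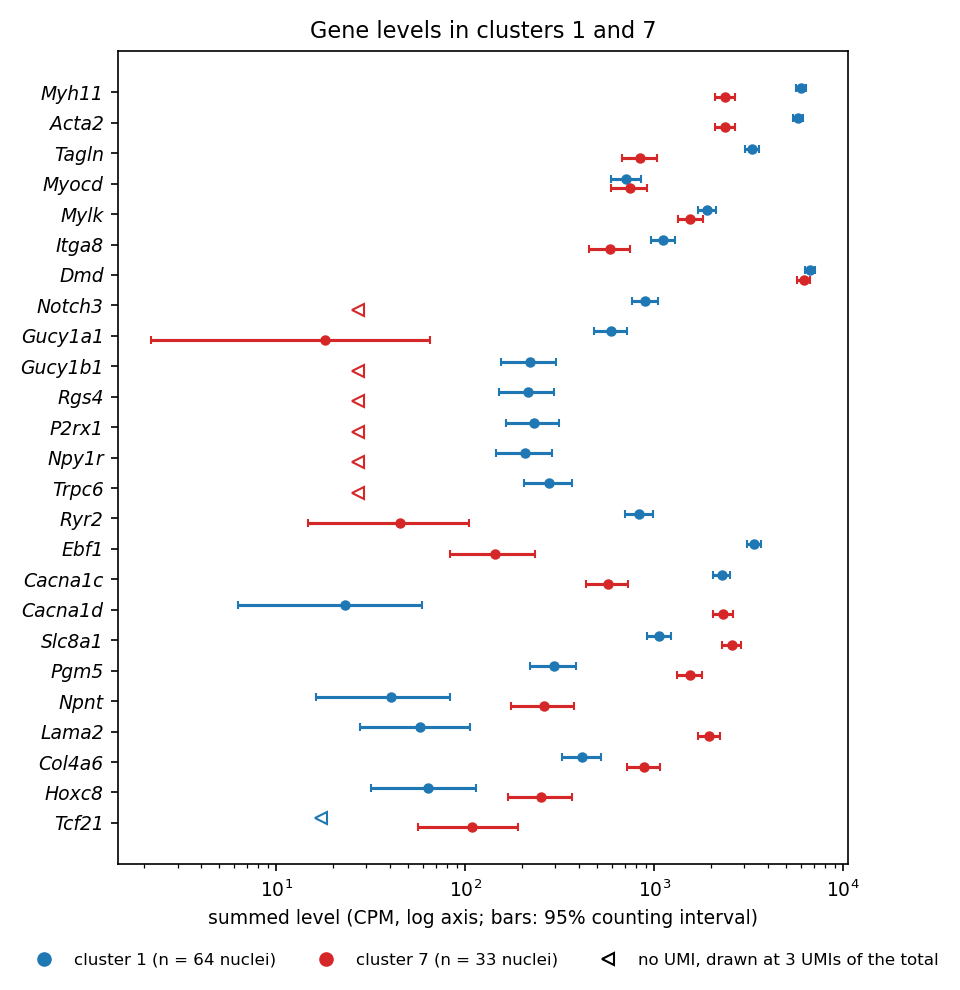
Summed levels of 25 genes in CPM on a log axis in cluster 1 (64 nuclei of 4 libraries) and cluster 7 (33 nuclei of BAT surgery), with exact 95% Poisson intervals; open triangles mark genes with no UMI, drawn at the level of 3 UMIs. Mylk and Dmd lie close together, as does Myocd, by which both clusters were singled out. Notch3 to Ebf1 are lower in cluster 7, and Cacna1d to Tcf21 are higher.

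Between members of BAT surgery and BAT sham, 6722 genes could be compared. Of these, 1380 (20.5%) were at least 2-fold higher in BAT surgery and 753 (11.2%) lower, by the rule of size above. The highest ratios belonged to epididymal genes: Gpx5 was at least 1337-fold higher, and Spag11b, Adam7, Lcn5, Lcn8 and Defb20 were at least 162-fold higher, each with no UMI in BAT sham members. Without the barcodes of 3 or more epithelial genes the counts were 624 higher and 497 lower of 3857 genes. The lowest ratios included Slc38a11, with 1 UMI against 88, and Dgkb at 78.8 against 1983 CPM, both leading genes of cluster 1. Cluster 1 supplied 32 of the 103 members of BAT sham and 6 of the 199 of BAT surgery.

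Vascular mural genes were lower in members of BAT surgery. Of the 12 with enough UMIs, 11 were lower, against 11.2% of all genes, and their median log2 ratio was -2.50 against 0.15 over all genes. Per UMI of the rule genes other than Actg2 the median was -0.88, against 1.76 over all genes. On that scale 6 of the 12 were at least 2-fold lower and 1 at least 2-fold higher. Of all 6722 genes compared, 114 were at least 2-fold lower on it and 5466 at least 2-fold higher, with 0.5 added to each count. Notch3 was at 78.8 against 843 CPM (ratio 0.0936, 0.0740 to 0.118) and 0.286 per rule-gene UMI. Gucy1a1 was at 33.7 against 501 CPM (ratio 0.0672, 0.0471 to 0.0940). All 5 pericyte genes with enough UMIs were lower as well in CPM, with a median of -2.81, and 3 of them were at least 2-fold lower per rule-gene UMI.

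Of 23 contractile genes, 16 were lower and none higher in BAT surgery, against 11.2% lower and 20.5% higher of all genes. The median log2 ratio of the list was -1.33 in CPM, below the 0.15 of all genes. Per rule-gene UMI, a scale that raises all genes alike to a median of 1.76, it was 0.28. The distance from all genes is the same on both scales by construction. Myl9 was at 362 against 1023 CPM, a ratio of 0.354, and at 1.08 per rule-gene UMI. Myocd had a ratio of 0.463 in CPM and 1.41 per rule-gene UMI. Both genes lay below the median of all genes, a position that the choice of scale cannot change. Visceral smooth muscle genes had 1 higher (Npnt, an integrin ligand, at 58.2 against 20.4 CPM) and 3 lower (Itga8, Synpo2 and Smtn) of 8. Among all genes 20.5% were higher and 11.2% lower. The median of the visceral genes was -0.25 in CPM and 1.36 per rule-gene UMI.

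Of 7 anterior Hox genes with enough UMIs, 4 were higher in members of BAT surgery and none lower, against 20.5% of all genes higher. Hoxd4 had 218 UMIs in 75 members against 2 in 2 members, and Hoxb3 119 against 4. The other barcodes of BAT surgery had Hoxd4 at 322 CPM, above the 167 CPM of its members. Of 7 glucocorticoid-responsive genes 3 were higher and 1 lower, with a median log2 ratio of -0.21 against 0.15 over all genes. The 3 higher genes were Fkbp5, Mt1 and Mt2. Fkbp5, a glucocorticoid target, was at 609 against 75.8 CPM in members, and at 897 CPM in the other barcodes of BAT surgery. The metallothionein Mt1 was at 302 CPM in members of BAT surgery and 42.8 CPM in its other barcodes, and at 43.7 CPM in members of BAT sham. Mt2 was at 132, 20.1 and 8.75 CPM in the same order.

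**Figure D5:**
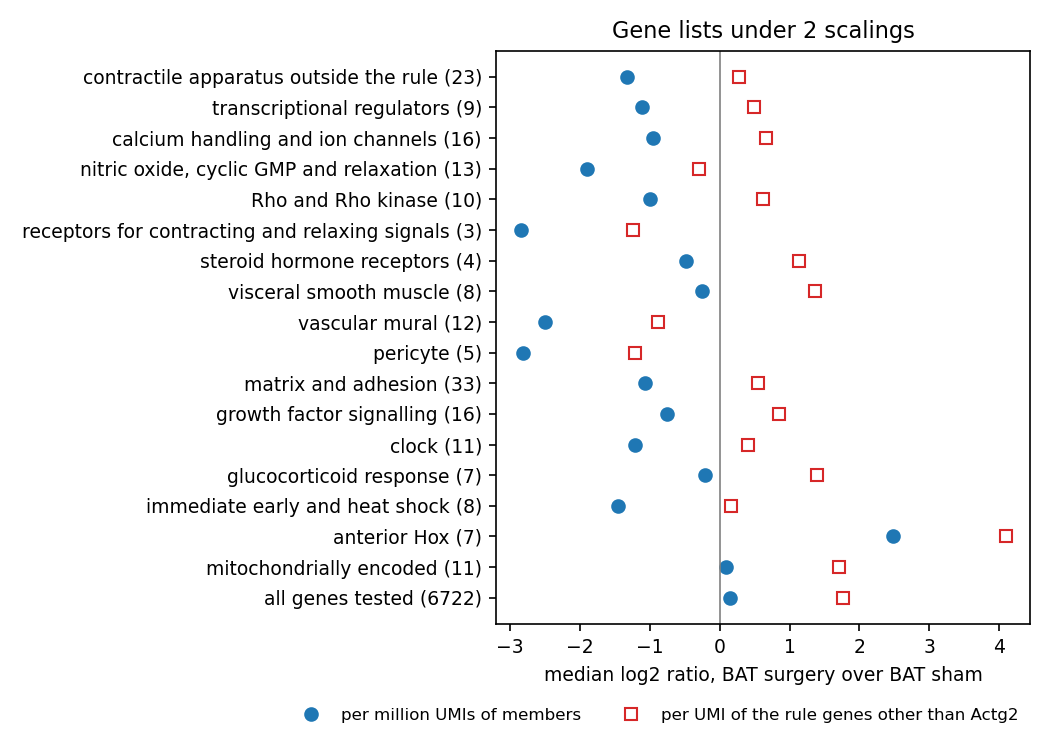
Median log2 ratio of BAT surgery over BAT sham members for each gene list, with the number of genes of at least 50 UMIs in brackets, in CPM (circles) and per UMI of the rule genes other than Actg2 (squares). The second scale moves every list up by the same amount; vascular mural and pericyte genes lie farther below all genes than the contractile apparatus does.

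Members of the sham libraries were closer to each other. Of 2330 genes compared, 245 (10.5%) had a level in BAT sham of 2-fold or more that in BeAT sham, and 155 (6.65%) the reverse. Myocd was at 297 against 92.8 CPM (ratio 3.20, 1.93 to 5.62), with 29 of 103 and 11 of 78 members carrying it. Prkg1 was at 3347 against 1232 CPM (2.72, 2.36 to 3.14). Col4a6, a basement membrane collagen, had 73 UMIs against 3, and Itga8, an integrin of smooth muscle, was at 446 against 160 CPM. Calcium genes were higher in BAT sham for 7 of the 15 compared and lower for none. No vascular mural gene of 12 passed the rule of size in either direction. In the other direction BeAT sham members had more Cnn1 (320 against 99.1 CPM), Tpm2 (1155 against 572 CPM) and Mustn1 (469 against 227 CPM).

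The sham libraries also differed in depth and in the clusters their members fell in. BeAT sham members had a median of 1590 UMIs against 2527, a mitochondrial share of 2.06% against 0.785%, and more hemoglobin RNA, with Hbb-bs at 1140 against 219 CPM. Cluster 2, which had the most hemoglobin and mitochondrial RNA, supplied 42 of the 78 BeAT sham members and 34 of the 103 of BAT sham. When each member was thinned to 1000 UMIs, 44 genes were higher in BAT sham and 45 in BeAT sham, of 346. The part of depth and of these RNAs in the difference was not tested.

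BeAT surgery had 22 members, too few for a comparison. Its members had the highest Myh11 level of the 4 libraries (3353 CPM), with a UMI in all 22, and the highest Cacna1c level (1928 CPM). Cluster 1 supplied 12 of them. Notch3 was at 543 CPM (388 to 740) in 12 members, and Kcnma1, the large-conductance potassium channel, at 774 CPM (586 to 1003) in 13.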

How the data were processed

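The authors deposited 1 matrix of raw UMI counts per gene and barcode for each of the 4 libraries (32285 genes); per the submitters' processing notes, build mm10 and Seurat 4.4.0 were used, and the sources used here do not give an aligner. The labels give nuclear RNA, while the protocol describes digested tissue and suspended cells. Barcodes with at least 300 genes and under 10% mitochondrial UMIs were kept. The members and gene lists were chosen with earlier results of these data known. UMIs were summed over the members of a library and given as CPM with exact Poisson intervals, ratios with exact conditional binomial intervals, and shares with Clopper-Pearson intervals (SciPy 1.17.1); these cover counting error only. With 1 library per group, genes were counted by size: at least 2-fold, an interval without 1, and at least 50 UMIs, between libraries of at least 50 members. A level of 0 is bounded by 3 UMIs. List medians add 0.5 to each count.

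Doublets were marked with Scrublet in Scanpy 1.11.5 and kept in the main values. The automatic threshold marked 0.01% and 0% in the sham libraries, so the highest-scoring 6% were used there. Members were clustered by the Leiden method (2000 variable genes, 15 components, resolution 1.0) without the 15 rule genes. Named genes are the rule genes, listed genes with at least 20 UMIs in members of 1 library, the 20 highest ratios of members over other barcodes, the 10 highest and lowest between libraries, and leading genes of clusters.

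Marker lists of the other cell types were read in members and in the other barcodes. Their summed levels in members, in the library order of the report, were 1904, 1984, 1696 and 774 CPM for adipose progenitors, against 2975, 894, 2023 and 818 CPM in other barcodes. At least 3 of the 10 progenitor markers had a UMI in 24 of 103, 127 of 199, 14 of 78 and 5 of 22 members. Endothelial genes were at 551, 284, 1000 and 489 CPM (other barcodes 857, 242, 825 and 722), and macrophage genes at 522, 671, 552 and 407 CPM (1423, 877, 682 and 371). Schwann cell genes were at 385, 90.3, 217 and 122 CPM (488, 81.7, 389 and 279), and skeletal muscle genes at 219, 32.1, 98.0 and 679 CPM (1084, 23.9, 61.0 and 446).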

Additional observations from a re-analysis of the deposited data

How the results depend on the processing

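No paired analysis was possible because each group has 1 library, and no replicate could be left out. With at least 4 rule genes in place of 3 the shares were 0.461%, 1.17%, 0.308% and 0.202% in the library order used above, with at least 2 they were 2.04%, 4.23%, 1.71% and 0.874%, and thinned to 2000 UMIs 0.594%, 1.10%, 0.404% and 0.197%. Without Actg2 in the rule the share in BAT surgery was 1.63%. BAT surgery had the highest and BeAT surgery the lowest share in each of these settings.

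For BAT surgery against BAT sham, 624 genes were higher and 497 lower of 3857 without barcodes of 3 or more epithelial genes. With members thinned to 1000 UMIs, 225 were higher and 150 lower of 954. Per 1000 UMIs of the rule genes other than Actg2, 5496 were higher and 115 lower of 6722. With no minimum of UMIs, 2015 were higher and 1533 lower of 19481. The rule-gene scale raises all genes alike, and on it the log2 ratio was positive, though below the median of all genes, for Acta2 (0.22), Myocd (0.50), Myl9 (0.11), Dmd (0.025) and Flna (0.29); thinned members turned Hoxd3 to -0.178, from 6 UMIs. The median log2 ratio of all genes was 0.15, 0.33 with median-of-ratios size factors and 1.76 per rule-gene UMI, and 64.7%, 73.0% and 98.0% of called genes were higher. The planned set of 590 epithelial genes held 0.00222% of the UMIs of BAT surgery members and changed no count. It did not include Gpx5, at 11691 CPM in those members, so it could not show the effect of epididymal RNA. Leaving out 1385 genes of the BAT surgery library (11.3% of its members' UMIs) gave 1653 higher and 623 lower of 6722 genes. This setting was chosen after seeing the data, as were the 2 without Actg2. For BAT sham against BeAT sham the counts were 142 and 79 of 842 genes with at least 4 rule genes. They were 44 and 45 of 346 thinned, 576 and 502 of 15582 with no minimum, and 557 and 51 of 2330 per rule-gene UMI. With at least 4 rule genes, 216 of 463 genes were higher in members than in other barcodes of BAT sham. In BeAT sham 70 of 145 were, and in BAT surgery 571 of 2242 without epithelial barcodes. In the main setting the counts were 326 of 1432, 190 of 548 and 1044 of 5699 in the same order. The cause was not tested. At cluster resolutions of 0.5, 1.5 and 2.0, 64, 35 and 33 of the 64 nuclei of cluster 1 stayed in 1 cluster, and 33, 33 and 22 of the 33 of cluster 7, at 0.5 in a cluster of 136. With 22 members, a count of 0 in BeAT surgery allows a level of up to 40.7 CPM (3 UMIs).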
